A study of Mus musculus with 4 samples.

Results

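Type I interferons (interferon beta and the interferon alpha family) bind the receptor Ifnar1/Ifnar2, which acts through the kinases Jak1 and Tyk2 on a factor complex that includes Stat2 and Irf9. That complex binds the interferon-stimulated response element in promoters and switches on a shared set of antiviral genes. In the lung these genes are known for their response to viruses and for a low basal level that many resident cells keep without infection. The genes described here were 33 such response genes, chosen by symbol. Of these, 31 were among the 32285 features of the deposited matrices. Mx1 and Mx2 were not analysed here.

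The genes were followed in single cells of whole lung from 4 female mice of the FVB/NJ strain that carried the MMTV-PyMT transgene, in which a mammary tumour virus promoter drives the polyoma middle T oncogene. Of the 4 mice, 2 had a tamoxifen pellet (5 mg, released over 60 days) and 2 a placebo pellet, which the labels also call the vehicle control. All were 13 weeks old and had carried the pellet for 5 weeks, since 8 weeks of age. All 4 carried the transgene, so no lung without it stands beside them. Perfused lungs were digested with enzymes, and each mouse gave 1 library of the 10x Genomics 5' assay, in which each RNA molecule is counted once through a unique molecular identifier (UMI).

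The 4 libraries held 32646505 to 37285982 UMIs in 7272 to 10168 barcodes, of which 6676 to 7480 per mouse were kept as cells, 28477 in all. Any 2 libraries shared 77 to 128 barcodes, 0.905% to 1.43%. Cells were grouped into 95 clusters without the interferon genes, and 75 clusters took a name from marker genes, which gave 29 cell classes. The names rest on markers alone, so each class is to be read as "-like". No cluster took the name of mammary tumour cells. A cluster of 160 cells, 86 of them from placebo 2, scored highest for alveolar fibroblasts. It was left unnamed for signs of mammary tumour cells. When each cell was named alone from its markers, 25 cells took the tumour name, 4 and 2 in the tamoxifen mice and 5 and 14 in the placebo mice. Whether they were tumour cells was not tested. The 20 unnamed clusters held 1986 cells (6.97%). The test took in 20 classes, those that held 20 or more cells of every mouse, and the 8 with the most cells in their smallest mouse were the main classes, namely neutrophils (11794 cells), CD4 T cells (2457), B cells (1823), alveolar macrophages (1240), erythroid cells (1060), alveolar fibroblasts (1033), CD8 T cells (901) and interstitial macrophages (707). Levels are UMIs per 1000000 UMIs of the class in 1 mouse, scaled by TMM (CPM). UMIs count molecules, so levels do not rise with gene length. Each p-value measures the spread between mice, with 2 mice per group.

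The promoters of 8 members that lead the results below show how the response element sits before the gene. They are the bases just upstream of the RefSeq start on GRCm38.p6, each 5' to 3' on the gene's own strand. The motif searched was GAAA, any 2 bases and GAAA again, on either strand, so that a match on the other strand reads TTTC, any 2 bases and TTTC. Capitals mark these repeats, and overlapping matches were counted apart.

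Isg15, chr4:156200819-156200958 (-): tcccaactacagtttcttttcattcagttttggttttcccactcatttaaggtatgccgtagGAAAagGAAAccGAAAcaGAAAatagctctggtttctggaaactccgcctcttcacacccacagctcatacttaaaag
Bst2, chr8:71537473-71537612 (-): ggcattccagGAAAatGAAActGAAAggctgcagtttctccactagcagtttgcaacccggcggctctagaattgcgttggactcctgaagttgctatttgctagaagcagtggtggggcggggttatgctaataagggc
Rsad2, chr12:26456453-26456592 (-): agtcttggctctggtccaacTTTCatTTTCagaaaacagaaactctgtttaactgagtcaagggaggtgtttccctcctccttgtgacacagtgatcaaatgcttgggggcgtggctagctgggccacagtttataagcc
Cmpk2, chr12:26469075-26469214 (+): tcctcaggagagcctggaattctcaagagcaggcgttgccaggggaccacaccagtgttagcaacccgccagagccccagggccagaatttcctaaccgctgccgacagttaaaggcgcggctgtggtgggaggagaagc
Ifit1, chr19:34640749-34640888 (+): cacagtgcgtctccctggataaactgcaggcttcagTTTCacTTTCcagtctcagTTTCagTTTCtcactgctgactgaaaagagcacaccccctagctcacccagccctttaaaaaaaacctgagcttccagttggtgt
Slfn5, chr11:82951942-82952101 (+): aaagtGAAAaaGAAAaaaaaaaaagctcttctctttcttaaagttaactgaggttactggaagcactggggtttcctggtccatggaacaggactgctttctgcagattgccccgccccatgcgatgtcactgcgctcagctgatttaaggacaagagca
Irf7, chr7:141266425-141266564 (-): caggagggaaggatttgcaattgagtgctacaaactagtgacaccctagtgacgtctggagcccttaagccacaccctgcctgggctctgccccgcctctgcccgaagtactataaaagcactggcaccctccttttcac
Oasl2, chr5:114896794-114896933 (+): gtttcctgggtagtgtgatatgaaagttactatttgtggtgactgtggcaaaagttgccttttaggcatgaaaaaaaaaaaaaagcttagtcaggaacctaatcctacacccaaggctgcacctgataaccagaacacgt

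Isg15 held 3 overlapping matches, Bst2 and Ifit1 held 2 each, and Rsad2 and Slfn5 held 1. Cmpk2, Irf7 and Oasl2 held none in the 250 upstream bases. Among the members, 24 had a promoter in the RefSeq table, and 14 of these (58.3%) held at least 1 match in the 250 upstream bases, 7 of them more than 1. Of all 32851 promoters in the table, 978 (2.98%) held a match. The units differ, since the share of members counts genes with a match in any of their promoters (26 promoters in all). The share of the whole table counts promoters. Usp18, Dhx58, Ifi27l2a, Zbp1, Mx1, Mx2, Parp14, Rtp4 and Oas2 had no entry. A match describes the letters only, and a window without one says nothing of the factor.

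The first question was which lung cells carried these genes. Their summed level was highest in plasmacytoid dendritic cells, at 7513 ± 218 CPM in tamoxifen mice and 7017 ± 556 CPM in placebo mice (SD, n = 2 each), and 79.3% of it was Bst2. Erythroid cells followed at 3399 ± 1420 and 2548 ± 1256 CPM, 77.2% of it Rsad2, then classical monocytes at 2346 ± 442 and 2015 ± 311 CPM and mesothelial cells at 1914 ± 86.9 and 1914 ± 156 CPM (tamoxifen and placebo mice, SD, n = 2 each). At the other end stood alveolar type 2 cells, with 132 ± 16.9 CPM in tamoxifen mice and 197 ± 22.2 CPM in placebo mice. Among the tested classes and the plasmacytoid dendritic cells, classical monocytes and general capillary endothelium were each the highest class for 6 members, plasmacytoid dendritic cells for 5 and neutrophils for 4. In 7 of the 31 members the lowest mouse of the highest class lay above the highest mouse of the next class. They were Rsad2, Bst2, Irf7, Stat2, Oasl2, Xaf1 and Ifi27l2a, and for the other 24 the first and second class overlapped.

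**Figure D1:**
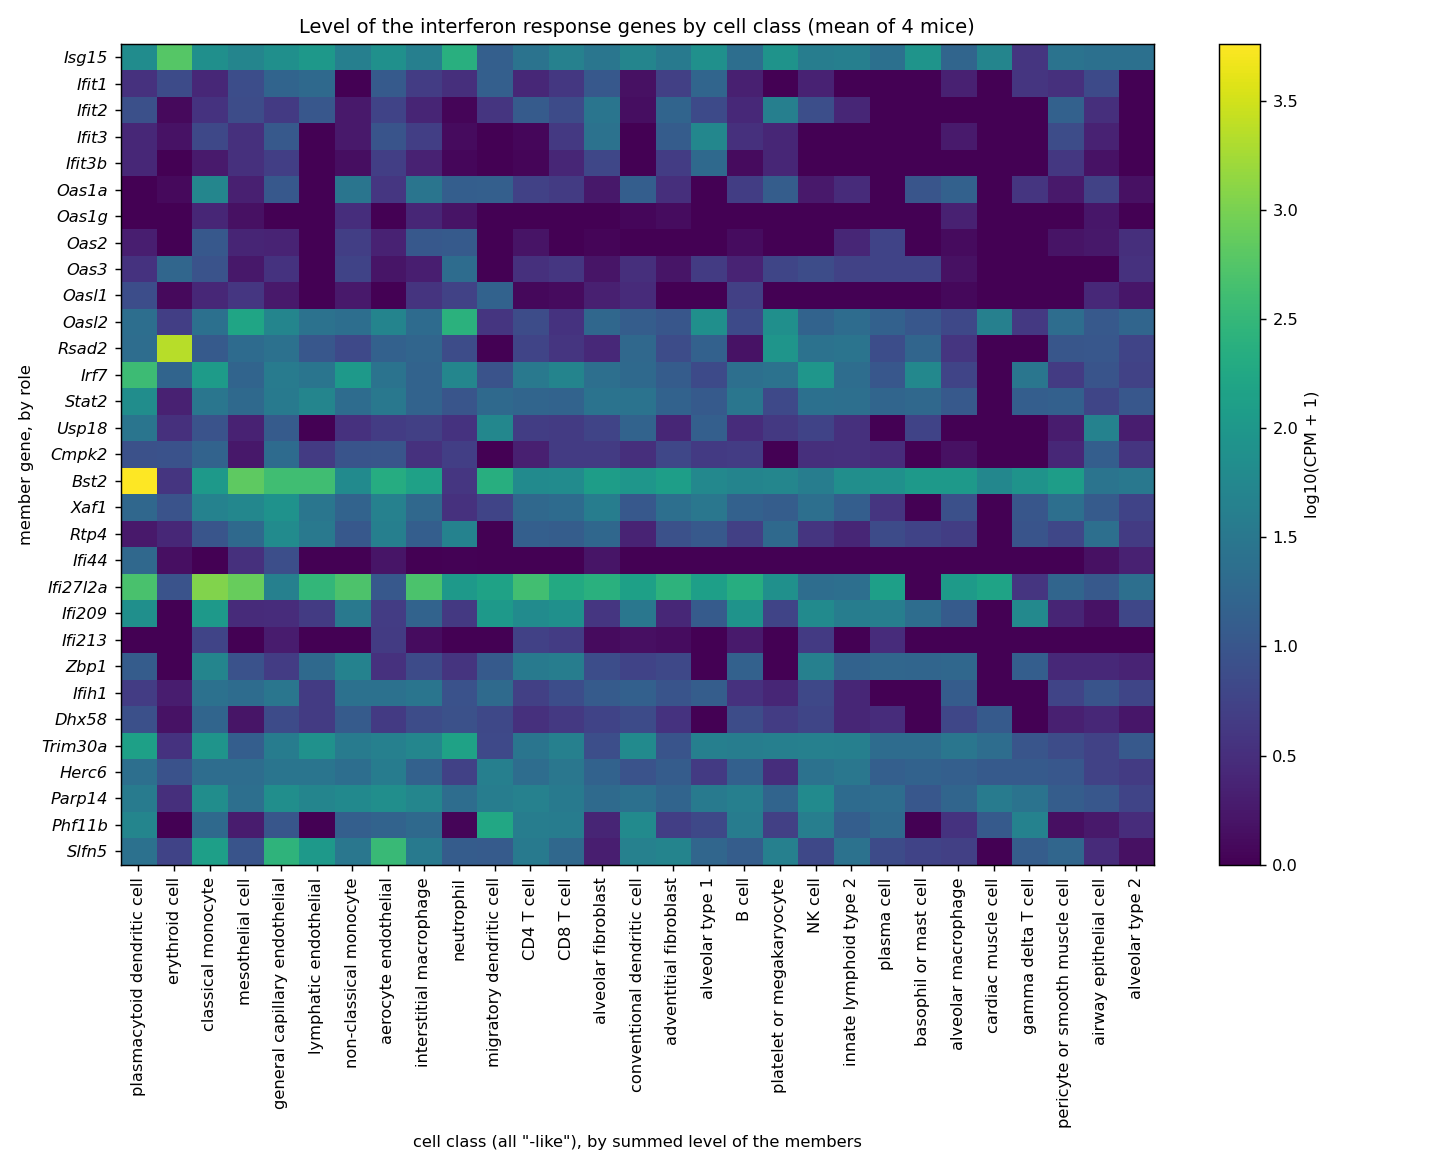
Mean level of the 31 members over the 4 mice in each of the 29 cell classes, as log10(CPM + 1), with members in rows by role and classes in columns by the summed level of the members. Bst2 stands out in plasmacytoid dendritic cells and Rsad2 in erythroid cells, while Oas1g, Ifi213 and Ifi44 are near 0 in most classes.

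Plasmacytoid dendritic cells, a rare leukocyte known as a main producer of type I interferon, numbered 40 and 23 in the tamoxifen mice and 55 and 14 in the placebo mice, too few for a test. Bst2 encodes tetherin, which holds budding virus at the cell surface and is a surface marker of these cells in the mouse. It was at 6151 and 6084 CPM in the tamoxifen mice and 5843 and 4980 CPM in the placebo mice, and the next class, mesothelial cells, had a mean of 676 ± 19.3 CPM (SD, n = 4). Irf7, the factor that drives the interferon alpha genes, was at 452 and 278 CPM with tamoxifen and 330 and 474 CPM with placebo, against a mean of 114 ± 38.1 CPM in classical monocytes (SD, n = 4). The groups overlapped for Irf7, and both tamoxifen mice were above both placebo mice for Bst2. Stat2, part of the factor complex that interferon activates, was at 71.8 and 64.7 CPM with tamoxifen and 70.5 and 70.6 CPM with placebo and its mean was 2.01 times that of the next class, general capillary endothelium. Oas1a, of the oligoadenylate synthetase family, had 0 UMIs in these cells.

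Rsad2 showed the largest ratio of any member between its highest class and the next. Rsad2, which encodes viperin, an enzyme that makes a chain-terminating nucleotide from CTP, was at 1786 and 3384 CPM in erythroid cells of the tamoxifen mice and 1251 and 2757 CPM in those of the placebo mice. The mouse with the lower value in each group was the one numbered 1, and the groups overlapped. Its mean was 24.9 times that of the next class, platelets or megakaryocytes (92.0 ± 63.8 CPM, SD, n = 4). Rsad2 was detected in 96.9% and 94.8% of erythroid cells of the tamoxifen mice and in 87.5% and 93.7% of those of the placebo mice, at a median of 2988 UMIs per cell. In B cells, at a median of 3043 UMIs, it was detected in 0.165% of cells.

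Cmpk2, a nucleotide kinase, is the next gene to Rsad2 on chromosome 12 and lies on the other strand. It did not share the erythroid level, with a mean of 7.78 ± 8.40 CPM there (SD, n = 4) from 22 UMIs. Its highest class was general capillary endothelium, with 22.4 and 20.4 CPM with tamoxifen and 18.4 and 18.7 CPM with placebo. Ifit1 had 15 UMIs and Usp18 had 6 UMIs in erythroid cells, so most members were near 0 there. Rtp4, a chaperone with antiviral action, was highest in general capillary endothelium, at 71.9 and 73.4 CPM with tamoxifen and 48.3 and 66.2 CPM with placebo, and overlapped with neutrophils.

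Isg15, the ubiquitin-like modifier that is joined to proteins and also secreted, had the second high erythroid level. It was at 459 and 949 CPM in erythroid cells of the tamoxifen mice and 316 and 612 CPM in those of the placebo mice. In neutrophils it was at 142 and 316 CPM with tamoxifen and 318 and 170 CPM with placebo. Mice of both groups overlapped in each class, and erythroid cells and neutrophils overlapped with each other. Isg15 was detected in 34.9% of erythroid cells, 31.0% of neutrophils and 4.11% of B cells, at median depths of 2988, 2830 and 3043 UMIs. Its protease Usp18, which also blocks the interferon receptor, was highest in airway epithelium, at 46.2 and 22.2 CPM with tamoxifen and 64.8 and 47.2 CPM with placebo.

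Within the erythroid cells both genes were lowest in the cluster with the least of the transferrin receptor gene Tfrc, a marker of immature red cells. In order of falling Tfrc, the 5 erythroid clusters had 1101, 708, 562, 376 and 125 CPM of Isg15 and 2645, 2708, 2294, 2005 and 1219 CPM of Rsad2 over all mice. In the cluster with the most Tfrc, Isg15 was at 1118 and 1208 CPM in the tamoxifen mice and 1180 and 994 CPM in the placebo mice. In the cluster with the least Tfrc it was at 0 and 228 CPM with tamoxifen, the first from 9 cells, and 72.1 and 130 CPM with placebo. In the same order of falling Tfrc, haemoglobin made up 48.9%, 54.7%, 58.4%, 62.3% and 63.9% of the UMIs of the clusters. Cluster levels without haemoglobin were not taken, so how far its rise lowers these CPM was not tested. Haemoglobin made up 58.0% of the UMIs of all erythroid cells, so a level in them is relative to a total that haemoglobin dominates. The next values are for all erythroid cells of a mouse. Without the haemoglobin UMIs, Rsad2 was at 5427 and 5649 CPM with tamoxifen and 4389 and 4966 CPM with placebo.

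Erythroid RNA was also found in other classes. Of the 25431 cells in other named classes, 498 (1.96%) had 2% or more of their UMIs from haemoglobin, a limit set after these data were seen. Those cells held 549 of the 876 Rsad2 UMIs (62.7%), beside 2.71% of all UMIs. Their share was 3.60% for Isg15 (417 of 11569 UMIs), 1.28% for Oasl2, 3.85% for Bst2 and 2.29% for Ifi27l2a. Without them Rsad2 was listed at 0 CPM in each of the 4 mice in NK cells, where it had stood at 30.6 and 9.20 CPM with tamoxifen and 9.20 and 50.2 CPM with placebo before scaling. In neutrophils Rsad2 hardly moved, with 2.52 and 11.1 CPM in the tamoxifen mice and 7.51 and 3.59 CPM in the placebo mice without those cells, against 2.51 and 11.3 CPM with tamoxifen and 7.73 and 4.05 CPM with placebo when they were kept. In plasmacytoid dendritic cells of placebo 1 it was at 85.3 CPM without them and 78.2 CPM with them. For Rsad2 outside erythroid cells, free erythroid RNA, doublets and expression by the cells themselves were not tested apart.

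The active members of the oligoadenylate synthetase family sense double-stranded RNA and make the messenger that switches on RNase L. Of its members, Oasl2, Oas2 and Oas3 were highest in neutrophils. Oasl2 was at 249 and 247 CPM in neutrophils of the tamoxifen mice and 217 and 279 CPM in those of the placebo mice. Mesothelial cells, the lining of the lung surface, were next with 181 and 136 CPM with tamoxifen and 162 and 159 CPM with placebo, and no mouse overlapped between these classes. Oasl2 was detected in 46.9% of neutrophils and 1.04% of B cells. Oas2 and Oas3 led there by their means alone, at 10.7 ± 4.41 and 20.5 ± 5.93 CPM (SD, n = 4), and overlapped with the next class. Oasl1 was highest in plasmacytoid dendritic cells at 6.66 ± 10.7 CPM, where 1 mouse held most of it. Oas1a was highest in classical monocytes at 51.3 ± 20.8 CPM. Oas1a and Oas1g are close copies of each other, and Oas1g had 78 UMIs in all.

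Across the neutrophil clusters, Isg15 and Oasl2 were lowest in the cluster led by Ngp, Camp and Ltf, which encode granule proteins of immature neutrophils. Isg15 was at 49.1 CPM and Oasl2 at 87.7 CPM there. Cluster 0, led by Icam1 and Saa3 and the largest of them, had 266 CPM of Isg15 and 348 CPM of Oasl2. Over all mice Isg15 was at 343 CPM in a cluster of 104 cells led by Mki67 and Il23a, with 301 and 258 CPM in the tamoxifen mice and 563 and 245 CPM in the placebo mice, the first from 13 cells. Within tamoxifen 2 and placebo 2 other clusters were higher, such as cluster 4 with 402 CPM in tamoxifen 2 and cluster 1 with 266 CPM in placebo 2. The transcription factor gene Irf7 moved less, with 55.3 CPM in the granule-protein cluster and 42.7 CPM in cluster 0.

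**Figure D2:**
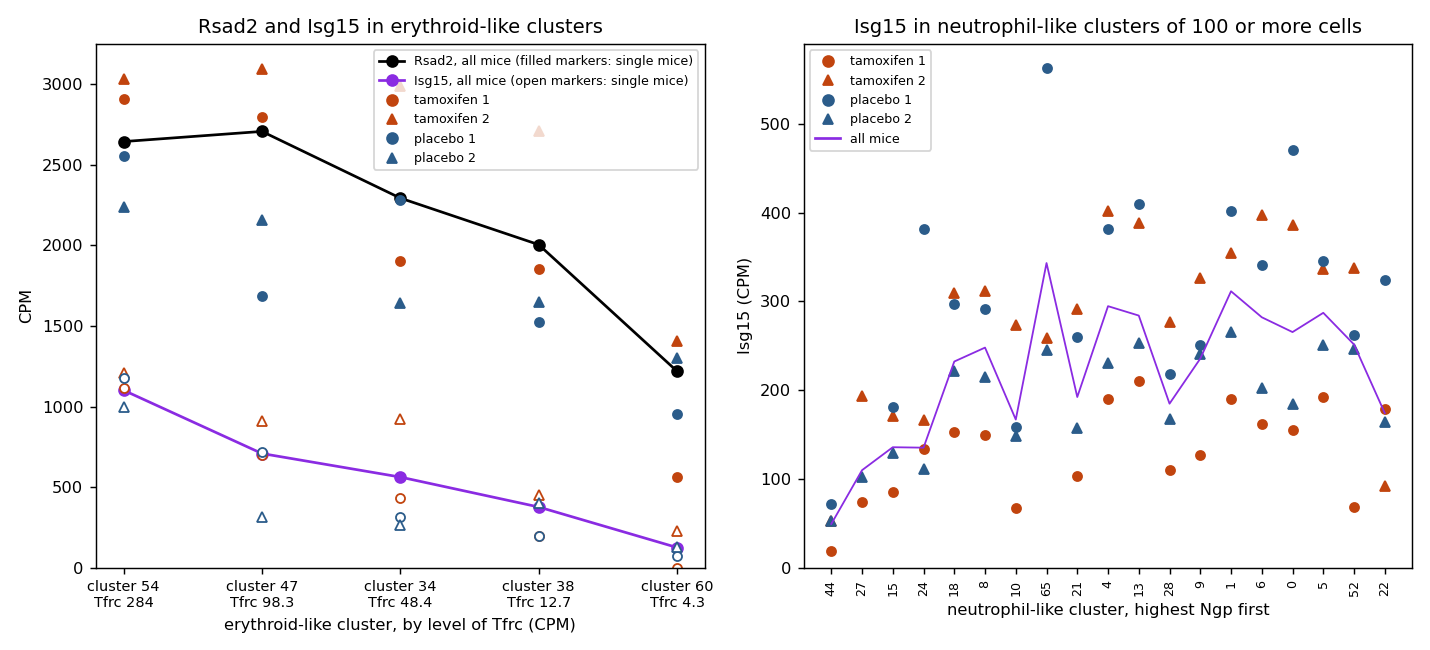
Left, level of Rsad2 and Isg15 (CPM) in the 5 erythroid clusters, ordered by falling Tfrc, with lines for all mice together and markers for single mice. Right, level of Isg15 (CPM) in each neutrophil cluster of 100 or more cells, ordered by falling Ngp, with a marker for each mouse that had at least 20 cells in the cluster. Both erythroid genes are lowest in the cluster with the least Tfrc, and Isg15 is lowest in the neutrophil cluster with the most Ngp.

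Classical monocytes were the highest class for Ifi27l2a and for several sensor genes. Ifi27l2a, which encodes a small hydrophobic membrane protein, was at 1080 and 1398 CPM in classical monocytes of the tamoxifen mice and 930 and 1117 CPM in those of the placebo mice. It was at 820 and 735 CPM with tamoxifen and 658 and 897 CPM with placebo in mesothelial cells, the next class, and no mouse overlapped between the classes. The DNA and RNA sensors Zbp1 (50.6 ± 13.7 CPM), Ifi209 (107 ± 17.8 CPM) and Dhx58 (15.7 ± 8.88 CPM, SD, n = 4 each) had their highest means in classical monocytes as well, and overlapped with the next class. The sensor Ifih1, which detects long double-stranded RNA, was nearly level between general capillary endothelium (28.8 ± 13.2 CPM) and interstitial macrophages (28.3 ± 6.98 CPM). Trim30a, a regulator of signalling from the sensors, was at 148 ± 11.9 CPM in neutrophils and 135 ± 26.9 CPM in plasmacytoid dendritic cells (SD, n = 4 each). It belongs to a family of close copies, so its counts are uncertain, as are those of Ifi209 and Ifi213.

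Endothelial cells carried Slfn5, a schlafen family gene. It was at 371 and 425 CPM in aerocytes, the capillary cells of gas exchange, of the tamoxifen mice and at 312 and 302 CPM in those of the placebo mice. In general capillary endothelium it was at 257 and 255 CPM with tamoxifen and 278 and 318 CPM with placebo. Xaf1, a promoter of cell death, was at 90.7 and 81.6 CPM in general capillary endothelium with tamoxifen and 81.2 and 71.3 CPM with placebo, above every mesothelial value, the next class. Parp14, a mono-ADP-ribosyl transferase, was nearly level between general capillary endothelium (71.5 ± 11.4 CPM) and aerocytes (70.6 ± 15.8 CPM), and Herc6, the mouse ligase for Isg15, was highest in aerocytes at 37.5 ± 15.2 CPM (SD, n = 4 each). Phf11b had its highest mean among the tested classes in conventional dendritic cells, at 61.2 ± 14.1 CPM. Ifi44 had 71 UMIs in all and Ifi213 had 76.

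The Ifit genes, whose products bind foreign RNA and block its translation, were low in most classes. Ifit3 and Ifit3b, which are close copies of each other, had their highest means in alveolar fibroblasts, at 25.6 ± 29.1 and 5.24 ± 5.46 CPM, and Ifit1 in general capillary endothelium, at 15.5 ± 7.89 CPM (SD, n = 4 each). Ifit2 was at 41.3 ± 57.6 CPM in platelets or megakaryocytes, where it had 19 UMIs in all and 0 in 1 mouse, and at 27.6 ± 22.8 CPM in alveolar fibroblasts. For the fibroblast levels the SD was near or above the mean because of 1 placebo mouse, described below.

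**Figure D3:**
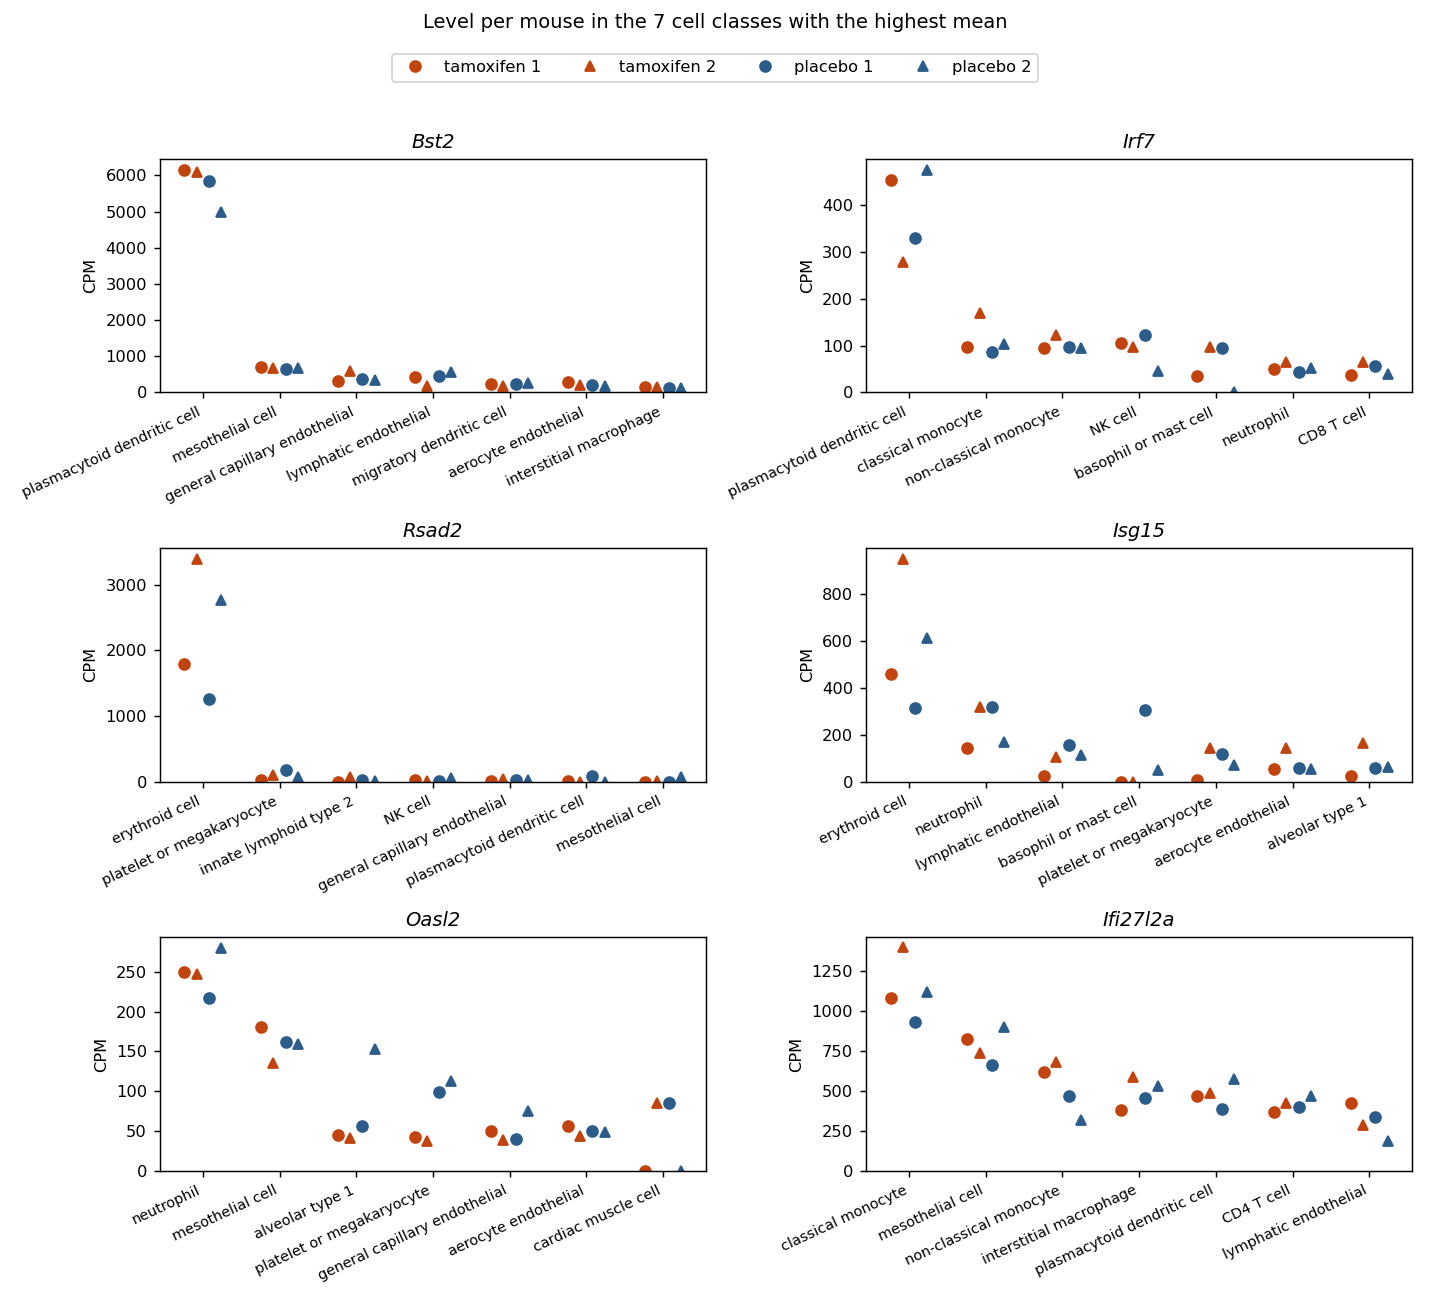
Level (CPM) of Bst2, Irf7, Rsad2, Isg15, Oasl2 and Ifi27l2a in each mouse, in the 7 classes with the highest mean of that gene, with tamoxifen mice in red and placebo mice in blue. For Bst2, Irf7 and Rsad2 the leading class stands clear of the rest in all 4 mice, and the tamoxifen and placebo mice of a class lie close to or among each other.

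The second question was whether the genes differed between tamoxifen and placebo mice within a class. No member passed the edgeR quasi-likelihood test at an adjusted p under 0.05 in any of the 20 classes (0 of 231 member-by-class tests over 28 members), while 16 of all 133057 gene-by-class tests did (0.012%). DESeq2 called 0 members and 47 genes in all. At an unadjusted p under 0.05 there were 19 member tests (8.23%), 11 higher and 8 lower with tamoxifen, against 3.59% of all genes. Of the 231 tests, 128 had a fold change above 0 and 103 below, and the smallest adjusted p of a member was 0.538. The groups did not overlap in 66 of the 231 member tests (28.6%), against 31.6% of all gene tests. The filter on low counts let 1 member (alveolar type 2 cells) to 24 members (neutrophils) of the 31 into the test of a class. Ifi44, Oas1g and Ifi213 passed it in none. The 95% confidence interval of a member's log2 fold change, not adjusted for the number of tests, reached 0.80 to either side in the median test. Its median within a class ran from 0.53 in CD4 T cells to 1.98 in platelets or megakaryocytes. The adjusted test asks for more, and a fold change as large as 2.83 (Isg15 in airway epithelium) did not pass it. A missing call therefore does not show that a gene was unchanged.

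In the 8 main classes 0 of 119 member tests passed with edgeR, as did 0% of all genes in them, and DESeq2 called 0 members. There, 6 member tests (5.04%) had an unadjusted p under 0.05, against 2.97% of all genes, with 59 fold changes above 0 and 60 below. The median log2 fold change of the members tested was 0.16 in neutrophils, 0.03 in CD4 T cells, 0.21 in B cells, -0.15 in alveolar macrophages, 0.34 in erythroid cells, -0.33 in alveolar fibroblasts, -0.04 in CD8 T cells and 0.03 in interstitial macrophages. That of all genes tested lay between -0.03 in erythroid cells and 0.01 in CD8 T cells. The erythroid median rests on 4 members and the fibroblast median on 18, of which 13 were below 0.

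**Figure D4:**
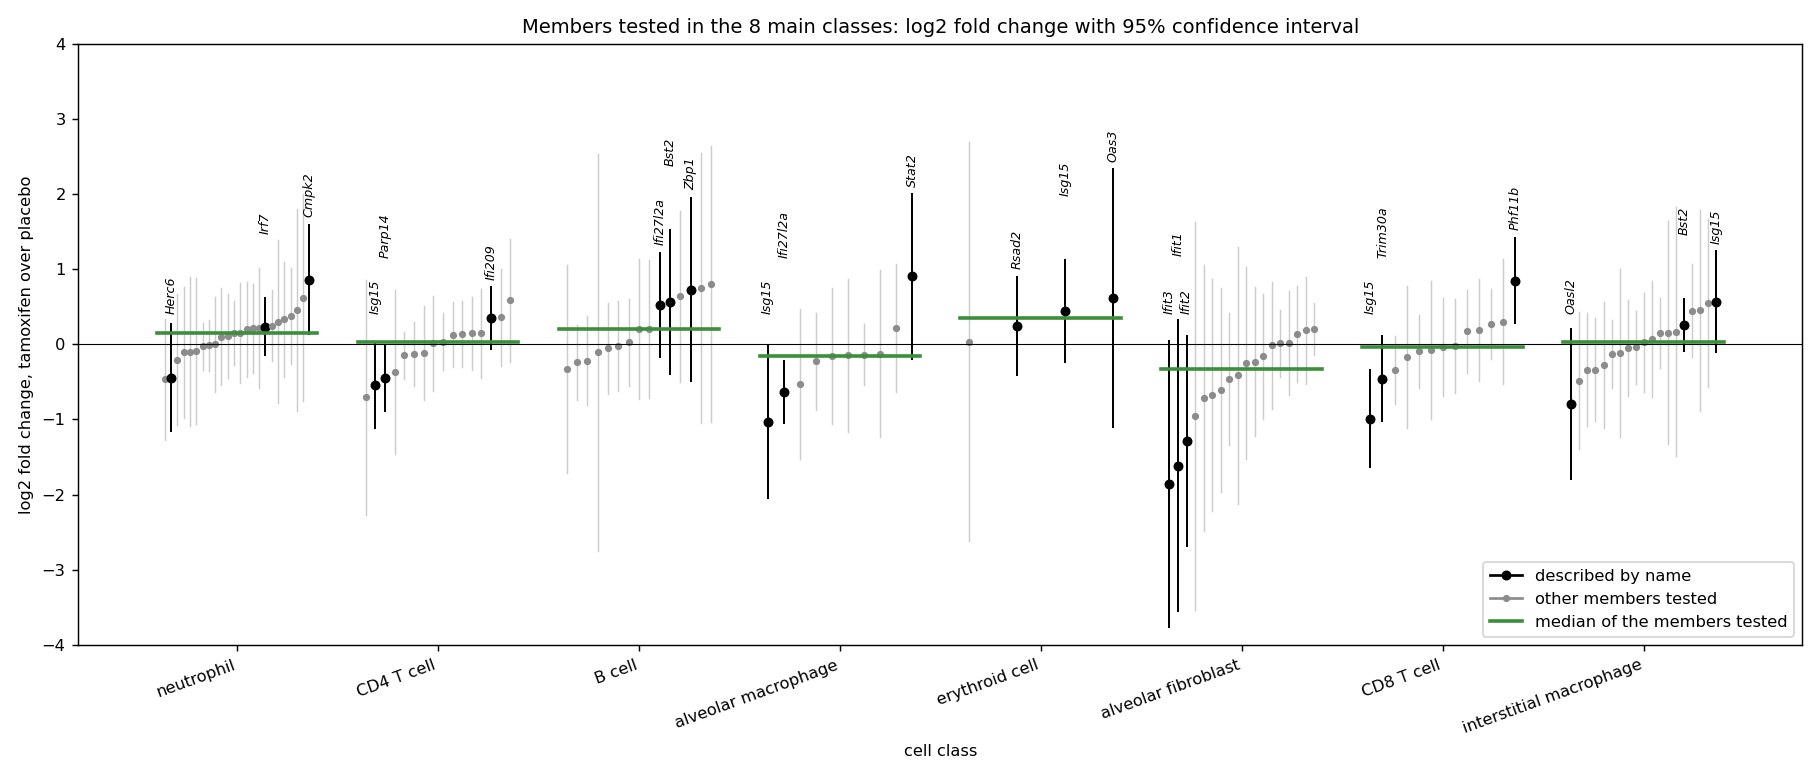
Log2 fold change, tamoxifen over placebo, of each member tested in the 8 main classes, with its 95% confidence interval, and the median of the members tested in green. The 3 members of smallest unadjusted p in each class are in black and named; labels are placed above their interval. Most intervals cross 0, and no member passed the adjusted test.

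In CD8 T cells Isg15 was at 23.3 and 36.7 CPM in the tamoxifen mice and 47.5 and 67.6 CPM in the placebo mice, so both tamoxifen mice were below both placebo mice. The fit gave -0.99 ± 0.30 (log2 fold change, SE), and the edgeR adjusted p was 1.00. Without tamoxifen 2 it was -1.27 with an adjusted p of 0.0312, and without placebo 1 it was -1.28 with an adjusted p of 0.0286, both past the threshold, from fits in which 1 mouse stands alone in its group. In placebo 2, 20 of its 35 UMIs came from 3 of the 121 cells (57.1%). Phf11b, a PHD finger gene, was at 47.3 and 49.0 CPM with tamoxifen and 26.1 and 27.03 CPM with placebo, a log2 fold change of 0.85 ± 0.26 (SE). Both tamoxifen mice were above both placebo mice. Trim30a had -0.46 ± 0.26 (SE), and neither gene passed, with an adjusted p of 1.00 each.

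In CD4 T cells Isg15 was at 19.3 and 22.2 CPM with tamoxifen and 24.96 and 36.2 CPM with placebo, a log2 fold change of -0.54 ± 0.26 (SE). Parp14 was at 31.4 and 43.7 CPM with tamoxifen and 47.6 and 53.5 CPM with placebo, a log2 fold change of -0.45 ± 0.20 (SE). For both genes the tamoxifen mice were below the placebo mice. Ifi209 had 63.8 and 80.4 CPM with tamoxifen and 49.5 and 63.9 CPM with placebo, and the groups overlapped. The adjusted p was 0.999 for each of them, and no call was made.

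Alveolar macrophages, which take up particles in the airspace, had low levels of most members. Ifi27l2a was at 88.6 and 83.2 CPM with tamoxifen and 121 and 145 CPM with placebo, a log2 fold change of -0.63 ± 0.19 (SE). Isg15 was at 10.6 and 10.4 CPM, from 8 and 7 UMIs, with tamoxifen and 13.9 and 28.1 CPM with placebo, a log2 fold change of -1.04 ± 0.47 (SE). In both genes the tamoxifen mice were below the placebo mice. Stat2 went the other way, with 13.2 and 13.4 CPM with tamoxifen and 8.58 and 5.79 CPM with placebo. The smallest of the 3 adjusted p-values was 0.978.

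In interstitial macrophages Isg15 had a log2 fold change of 0.57 ± 0.29 (SE), with 37.6 and 61.5 CPM in the tamoxifen mice and 40.4 and 26.4 CPM in the placebo mice, and the groups overlapped. Oasl2 had -0.79 ± 0.44 (SE), with 12.5 and 16.4 CPM with tamoxifen and 14.5 and 36.3 CPM with placebo. Its fold change turned to 0.01 without placebo 2. Bst2 was at 145 and 165 CPM with tamoxifen and 134 and 123 CPM with placebo, both tamoxifen mice above. The adjusted p was 1.00 for each.

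In alveolar fibroblasts the Ifit genes were high in 1 mouse of the 4. Ifit3 was at 11.98 and 9.36 CPM in the tamoxifen mice and 11.9 and 69.2 CPM in the placebo mice, a log2 fold change of -1.86 ± 0.80 (SE). Ifit2 was at 18.6 and 12.7 CPM with tamoxifen and 17.6 and 61.6 CPM with placebo, a log2 fold change of -1.29 ± 0.59 (SE). Ifit1 was at 5.39 and 3.85 CPM with tamoxifen and 4.74 and 25.3 CPM with placebo. Placebo 1 lay between the tamoxifen mice in all 3 genes, and placebo 2 stood apart. The adjusted p was 1.00 for each. Without placebo 1 the log2 fold changes were -2.69 for Ifit3, -1.98 for Ifit2 and -2.44 for Ifit1, with adjusted p of 0.000186, 0.00174 and 0.0161, from a fit that sets placebo 2 alone against the tamoxifen mice.

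Part of that level lay in few cells, and the genes were also detected in more cells of that mouse. Ifit3 was detected in 7.54% and 6.78% of alveolar fibroblasts of the tamoxifen mice and in 5.46% and 19.5% of those of the placebo mice, and Ifit1 in 1.51% and 2.12% with tamoxifen and 1.24% and 6.67% with placebo. In placebo 2, 3 of the 195 alveolar fibroblasts held 54.7% of the 137 Ifit3 UMIs, 62.3% of the 122 Ifit2 UMIs and 36 of the 50 Ifit1 UMIs. The cell with the most Ifit3 had 21 of the 31 members among its 11877 UMIs, with 48 UMIs of Ifit2, 28 of Ifit3, 18 of Isg15, 18 of Bst2, 17 of Ifit1, 12 of Ifit3b and 10 of Irf7. It had 1 haemoglobin UMI and 0 UMIs of the leukocyte gene Ptprc.

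In neutrophils Cmpk2 was at 4.18 and 6.17 CPM with tamoxifen and 2.24 and 3.18 CPM with placebo, a log2 fold change of 0.86 ± 0.32 (SE), both tamoxifen mice above. Irf7 (0.24 ± 0.16) and Herc6 (-0.44 ± 0.31, SE) overlapped between the groups, and the adjusted p was 0.999 for all 3. In B cells Ifi27l2a was at 186 and 334 CPM with tamoxifen and 150 and 209 CPM with placebo (log2 fold change 0.53 ± 0.30, SE). Bst2 was at 34.7 and 85.8 CPM with tamoxifen and 38.4 and 38.4 CPM with placebo, and its fold change of 0.56 turned to -0.17 without tamoxifen 2. Zbp1 stood at 0.73 ± 0.53 (SE), and all 3 overlapped between the groups, with an adjusted p of 1.00 each. In erythroid cells Isg15 (0.44 ± 0.28), Rsad2 (0.25 ± 0.27) and Oas3 (0.62 ± 0.70, SE) overlapped, with an adjusted p of 0.999 each. For Isg15 and Rsad2 that overlap depends on the total: per 1000000 UMIs other than haemoglobin, with no test, Isg15 was at 1396 and 1584 with tamoxifen and 1109 and 1103 with placebo, and both tamoxifen mice were above both placebo mice, as they were for Rsad2 on that scale.

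Further members passed when 1 mouse was left out. Without tamoxifen 1 Rsad2 passed in airway epithelium (4.78, adjusted p 2.01e-05). Without placebo 1 Rsad2 passed in conventional dendritic cells (8.39), and without placebo 2 it also passed there (2.64). Without placebo 1 further calls were Isg15 in alveolar fibroblasts (-1.44, adjusted p 0.0188), Oasl2 in CD4 T cells (-2.78, adjusted p 0.00516) and, in mesothelial cells, Isg15 (1.58) and Rsad2 (-4.11). Without placebo 2 further calls were Ifi27l2a in alveolar fibroblasts (0.72, adjusted p 0.0278), Rtp4 in neutrophils (0.86, adjusted p 0.0168) and Ifi27l2a in conventional dendritic cells (0.94). With all 4 mice and the filter on low counts none of them passed. In these 3 classes most Rsad2 of the highest mouse lay in cells with 2% or more haemoglobin. Without those cells, before scaling, Rsad2 went from 32.6 to 2.07 CPM in airway epithelium of tamoxifen 2. It went from 61.3 to 1.41 CPM in conventional dendritic cells of tamoxifen 2 and from 69.8 to 0 CPM in mesothelial cells of placebo 2. In the latter all 42 Rsad2 UMIs came from 3 of 38 cells.

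Whether the tamoxifen effect differed among the 8 main classes was tested in 1 fit with the mouse as a block. Of the 26 members in that edgeR fit 0 passed (0% of all 12166 genes), 0 had an unadjusted p under 0.05, against 2.04% of all genes, and the smallest was 0.0660, for Phf11b. DESeq2 was not run for this test.

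Outside the main classes the members with an unadjusted p under 0.05 are named here after their values were seen. In conventional dendritic cells these were 4 of 17 members, against 4.53% of all genes. Isg15 was at 15.5 and 159 CPM in the tamoxifen mice and 15.8 and 13.9 CPM in the placebo mice, which gave 2.51 ± 0.83 (log2 fold change, SE) and an edgeR adjusted p of 1.00. Tamoxifen 1 lay between the placebo mice, and tamoxifen 2 stood apart. In that mouse 202 of the 232 Isg15 UMIs and 70 of the 91 Rsad2 UMIs came from 1 of 143 cells. The cell held 28772 UMIs, against a class median of 10270, with 1148 haemoglobin UMIs, against a class median of 0 haemoglobin UMIs. It also held 16 UMIs of Ptprc and 15 of the dendritic cell gene Cd209a, and the doublet caller had not marked it. Leaving out the 4 cells of tamoxifen 2 with 2% or more haemoglobin brought Isg15 to 20.5 CPM there, against 156 CPM with them, both before scaling. The cell held 176 Isg15 UMIs per 1000 haemoglobin UMIs. Pooled over all erythroid cells of a mouse, this ratio was 1.00 and 1.67 with tamoxifen and 0.809 and 0.581 with placebo. Isg15 was uneven among those erythroid cells. Their 3 leading cells held 47.8% and 15.7% of it with tamoxifen and 57.9% and 24.2% with placebo. The ratio was not taken for single erythroid cells, so the source of the Isg15 in the dendritic cell was not tested.

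The other members in dendritic cells were Bst2, Irf7 and Xaf1. Bst2 was at 114 and 112 CPM with tamoxifen and 78.2 and 67.1 CPM with placebo, which is 0.62 ± 0.15 on the log2 scale (SE; adjusted p 0.538). Irf7 was at 18.04 and 32.9 CPM with tamoxifen and 8.85 and 12.8 CPM with placebo, and in tamoxifen 2 the 3 leading cells held 62.5% of its 48 UMIs. Xaf1 was at 12.2 and 13.7 CPM with tamoxifen and 6.52 and 7.46 CPM with placebo. In all 3 the tamoxifen mice were above the placebo mice. A fit with the replicate number as a block called 1 member, Isg15 in these cells (1.87, adjusted p 0.0195). Isg15 also passed there without tamoxifen 1 (3.39), placebo 1 (2.61) or placebo 2 (2.46) but not without tamoxifen 2, and Irf7 passed without placebo 2 (1.53, adjusted p 0.00424).

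Airway epithelium showed a like concentration. Isg15 was at 12.1 and 67.7 CPM in the tamoxifen mice and 3.65 and 8.74 CPM in the placebo mice, a log2 fold change of 2.83 ± 0.86 (SE), and 52 of the 67 UMIs of tamoxifen 2 lay in 1 of 154 cells. That cell held 924 haemoglobin UMIs among 12240, or 56.3 Isg15 UMIs per 1000 haemoglobin UMIs, beside 97 UMIs of the club cell gene Scgb1a1. The source of its Isg15 was not tested. Without the 15 cells of tamoxifen 2 with 2% or more haemoglobin, Isg15 was at 12.4 CPM there, against 60.7 CPM with them, before scaling. With such cells left out of every mouse, tamoxifen 1 was at 12.7 CPM and the placebo mice at 4.13 and 5.16 CPM. Both tamoxifen mice thus stayed above both placebo mice, with no test. These values rest on few UMIs, as tamoxifen 1 had 11 and the placebo mice 4 and 5 before any cell was left out. Without tamoxifen 1 the gene passed, at 3.57 on the log2 scale (adjusted p 5.83e-11).

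In adventitial fibroblasts Slfn5 averaged 74.6 ± 36 CPM with tamoxifen, the lower mouse at 49.2 CPM, and 21.3 ± 16.4 CPM with placebo, the higher mouse at 32.9 CPM (SD, n = 2 each, log2 fold change 1.60 ± 0.47, SE, adjusted p 0.750). Isg15 was at 32.0 and 66.0 CPM with tamoxifen and 21.3 and 19.5 CPM with placebo, with 70.6% of the 51 UMIs of tamoxifen 2 in 3 cells. Each gene passed without the tamoxifen mouse in which it was lower, Slfn5 without tamoxifen 2 (2.05, adjusted p 6.94e-07) and Isg15 without tamoxifen 1 (1.65, adjusted p 0.00239). In non-classical monocytes Ifi27l2a was at 616 and 677 CPM with tamoxifen and 467 and 316 CPM with placebo (0.68 ± 0.19, SE, adjusted p 0.802) and passed without placebo 1 (1.01, adjusted p 0.0134). Ifih1 was at 14.5 and 17.6 CPM with tamoxifen there, against 34.3 and 30.5 CPM with placebo. In platelets or megakaryocytes Oasl2 was at 42.2 and 37.8 CPM with tamoxifen and 98.5 and 113 CPM with placebo (-1.69 ± 0.70, SE, adjusted p 0.965). In general capillary endothelium Ifi27l2a was at 18.8 and 124 CPM with tamoxifen and 10.6 and 18.7 CPM with placebo, with 80.3% of the 61 UMIs of tamoxifen 2 in 3 cells, and passed without tamoxifen 1 (3.12, adjusted p 0.00114).

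The third question was how many cells had several of the genes detected at once. The share that the level of the members in a class would give by itself was not computed. Whether the genes were switched on together was therefore not tested. A cell was called interferon-high when at least 4 members were detected after it was thinned to 1000 UMIs, and shallower cells were left out. Such cells made up 204 of 11413 neutrophils, 1.36% and 2.47% in the tamoxifen mice and 1.12% and 1.91% in the placebo mice. In classical monocytes they were 3.39% (exact 95% binomial interval 0.413% to 11.7%) and 13.8% (6.15% to 25.4%) with tamoxifen and 8.96% (3.36% to 18.5%) and 5.77% (1.21% to 15.9%) with placebo, 19 of 236 cells. In B cells they were 0.493% and 3.16% with tamoxifen and 0.372% and 0.769% with placebo, and in interstitial macrophages 0.730% and 3.03% with tamoxifen and 1.51% and 0.840% with placebo. Tamoxifen 2 had the highest share in each of these 4 classes. General capillary endothelium had 4.72% and 3.61% with tamoxifen and 4.44% and 3.75% with placebo, 23 of 550 cells.

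The shares overlapped between the groups in these 5 classes. They did not in non-classical monocytes, at 1.37% and 3.23% with tamoxifen and 0.614% and 1.05% with placebo, in conventional dendritic cells, at 0.870% and 0.725% with tamoxifen and 0% and 0% with placebo, and in aerocytes, at 0% and 0% with tamoxifen and 1.59% and 3.57% with placebo, from 9, 2 and 3 such cells in all (exact permutation p 0.333 each). Two-sided exact permutation tests over the mice gave p of 0.667 in neutrophils and B cells and 1.00 in classical monocytes, interstitial macrophages and general capillary endothelium, where 2 mice against 2 cannot give less than 0.333. Without tamoxifen 2 the difference of means reversed in classical monocytes (-3.97 percentage points), neutrophils (-0.157), interstitial macrophages (-0.444) and B cells (-0.0779). No such cell was found among 1120 alveolar macrophages, 369 alveolar type 2 cells, 218 NK cells, 366 airway epithelial cells or 379 adventitial fibroblasts. For the alveolar macrophages of a mouse, a count of 0 allows a share of up to 0.993% to 1.12% when the limit is put at 3 cells of the total, and up to 1.21% to 1.36% by the exact 95% binomial interval, counting error only. In neutrophils 121 of the 204 cells had exactly 4 members, and 390 more cells had 3. Unthinned, the neutrophil shares were 9.75% and 13.8% with tamoxifen and 4.97% and 24.2% with placebo.

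Among the 204 interferon-high neutrophils 89.7% had Oasl2, 81.9% Isg15, 73.0% Trim30a and 64.2% Rtp4, against 47.0%, 30.7%, 35.9% and 9.46% of the other neutrophils. Since the count itself uses these genes, the difference is a description only.

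**Figure D5:**
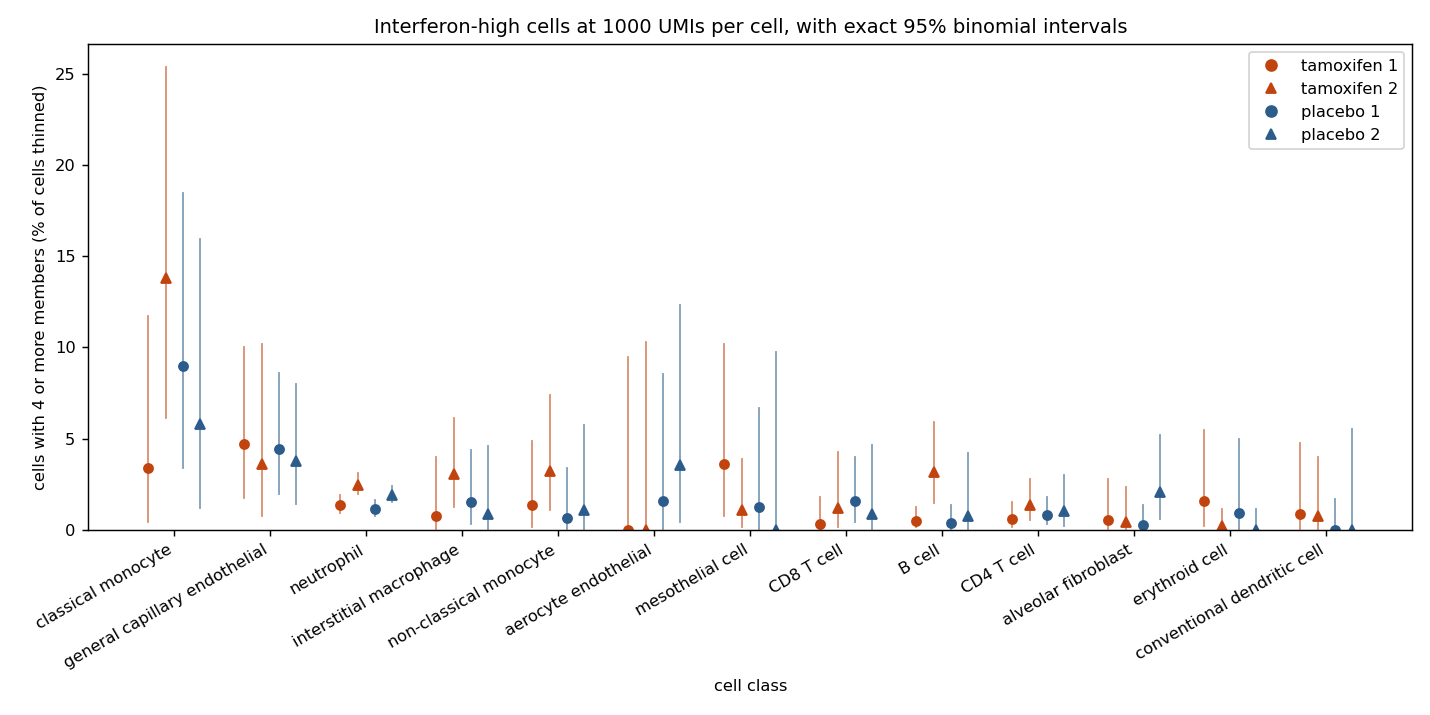
Share of interferon-high cells (at least 4 members detected at 1000 UMIs) in each mouse, with exact 95% binomial intervals, in the 13 tested classes that had any, with tamoxifen mice in red and placebo mice in blue. Classical monocytes reach 13.8% in tamoxifen 2, and the intervals of the mice overlap in most classes.

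The rest of the pathway gives the setting. The ligands were nearly absent. Ifnb1 had 38 UMIs in all, from 14 cells. Of these UMIs, 19 and 13 were in the tamoxifen mice and 6 and 0 in the placebo mice. Ifna1 had 5 UMIs, all from 1 cell, and none of the 18 ligand genes could be tested. The receptor chains were highest in plasmacytoid dendritic cells, Ifnar1 at 228 and 188 CPM with tamoxifen and 269 and 192 CPM with placebo, and Ifnar2 at 558 and 588 CPM with tamoxifen and 577 and 645 CPM with placebo. The signalling gene Irf9 (70.8 ± 21.1 CPM) and the sensors Tlr7 (109 ± 14.6 CPM) and Tlr9 (44.3 ± 18.3 CPM) had their highest means there as well (SD, n = 4). Irf9 overlapped with classical monocytes (62.4 ± 12.1 CPM) and Tlr7 with non-classical monocytes (102 ± 19.2 CPM), where the first tamoxifen mouse and the second placebo mouse were above their own plasmacytoid dendritic cells. The adaptor Myd88 (577 ± 60.9 CPM) and the inhibitor Socs3 (2483 ± 601 CPM) were highest in neutrophils. Tests between the groups called 0 of 35 for the receptors, 0 of 65 for signalling, 0 of 141 for sensors and adaptors and 0 of 93 for inhibitors, with 0, 4 (6.15%), 9 (6.38%) and 5 (5.38%) at an unadjusted p under 0.05, against 3.59% of all genes.

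Among 66 other response genes 1 of 621 tests passed with edgeR, and 38 (6.12%) had an unadjusted p under 0.05. Ifitm2, a membrane protein that blocks virus entry, fell with tamoxifen in NK cells to 117 and 210 CPM, against 436 and 578 CPM in the placebo mice, which the fit gave as -1.66 ± 0.29 (log2 fold change, SE; edgeR adjusted p 0.0234). In that class 0.389% of all genes passed. Neutrophils had 5410 and 5545 CPM of Ifitm2 with tamoxifen and 4716 and 4827 CPM with placebo, so the level in NK cells was a small part of theirs, and what free or doublet neutrophil RNA adds to it was not tested. The call was lost with the replicate block (adjusted p 0.174), with cells assigned singly (0.161) and with equal cell numbers per mouse (0.984), while the log2 fold change stayed between -2.09 and -1.21 over all 12 alternatives. The interferon gamma genes (0 of 130, 11 or 8.46% at an unadjusted p under 0.05) and the type III genes (0 of 21, 0 at an unadjusted p under 0.05) gave no call.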

How the data were processed

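The authors deposited UMI counts per gene and cell barcode for each of the 4 mice. The matrices came from Cell Ranger 5.0.0 per the file headers. Version 8.0.1 and the mm10 build stand in the submitters' processing notes. A UMI is counted once per molecule. Barcodes under 250 genes or over 15% mitochondrial UMIs were dropped, and 487 cells with a Scrublet score of 0.25 or more (1.20% to 2.16% per mouse) were removed, because its automatic limit called 0 to 160 cells per library. Clustering used scanpy 1.11.5 and leidenalg 0.10.2 (2000 variable genes without the interferon genes, 40 components, 15 neighbours, resolution 4). The resolution and the limits for naming were set after clusters and cells per mouse were seen. Sums of the counts over the cells of a class in 1 mouse entered edgeR 4.0.16 in R 4.3.3 (TMM, filterByExpr, quasi-likelihood F test, Benjamini-Hochberg adjustment over all genes of a class, threshold 0.05), with DESeq2 1.42.0 as an alternative. The code was tested on simulated data, in which a 4-fold change was recovered for 97 of 99 changed genes in the CD8 T cell set-up and for 31 of 96 in the erythroid one. The changed genes were drawn from well counted genes only, and the same spread between mice was simulated for all genes of a class. The recovery therefore does not cover members with few UMIs or with UMIs gathered in few cells. Members and lists were chosen with earlier results of these data known. Fold changes are given for the 3 members of smallest unadjusted p in each main class and for called genes; those in other classes were chosen after their values were seen. Counting intervals are exact binomial (Clopper-Pearson) and cover counting error only. Alternatives were another tool, no filter, 1 mouse left out, a replicate block, doublets kept, other clusterings, equal cell numbers, and other thinning. Replicate numbers were shared between the groups, but with 2 pairs the rule for pairing was not met.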

Additional observations from a re-analysis of the deposited data

Results flagged for a closer look

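For 3 members the groups did not overlap and lay in opposite directions in different classes, each at an unadjusted p under 0.05. Over all classes the groups did not overlap in 28.6% of member tests and 31.6% of all gene tests. They were picked after their values were seen, no value passed the adjusted test, and the difference between these classes was not tested, apart from the fit over the main classes. Isg15 had a log2 fold change, tamoxifen over placebo, of -0.99 in CD8 T cells and -1.04 in alveolar macrophages, against 1.24 in adventitial fibroblasts and 2.83 in airway epithelium. Ifi27l2a had -0.63 in alveolar macrophages and -2.14 in pericytes or smooth muscle cells, against 0.68 in non-classical monocytes and 2.18 in general capillary endothelium. The value of -2.14 rests on 4 and 2 UMIs in the tamoxifen mice and 21 and 16 UMIs in the placebo mice. In each placebo mouse 3 cells held most of them, 71.4% and 87.5%. For the value of 2.83, 1 cell held 52 of the 67 UMIs of tamoxifen 2. For the value of 2.18, 3 cells held 80.3% of the 61 UMIs of tamoxifen 2. The share of 3 cells was 70.6% of the 51 UMIs of tamoxifen 2 for the value of 1.24. It was 57.1% of the 35 UMIs of placebo 2 for the value of -0.99. Bst2 had -0.77 in airway epithelium, at 19.8 and 21.2 CPM with tamoxifen and 41.0 and 26.2 CPM with placebo, against 0.62 in conventional dendritic cells.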

How the results depend on the processing

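Main values rest on 2 mice per group, so 1 mouse can set a call. The main fits held 133057 gene tests and 231 member tests. The number of tests is not given for the alternatives, and it is larger without a count filter. Their counts of calls therefore do not show whether members passed more often than other genes. The main fits called 16 genes, 0 members and 1 other pathway gene. DESeq2 called 47 genes, 0 members and 2 pathway genes. Without a count filter these were 1335, 12 and 37, and the between-class test called 105 genes. With doublets kept they were 38, 0 and 2, with the interferon genes left in the clustering 35 genes and 0 members, and with cells assigned singly 29, 0 and 0. With the replicate block they were 296, 1 and 13. With the replicate numbers crossed they were 181, 1 and 7. Same-numbered mice deviated together with correlations of -0.18 to 0.60 over the classes. Leaving out 1 mouse, which leaves a lone mouse assumed to vary like the other group, gave 386 to 1254 genes, 2 to 11 members, 12 to 43 pathway genes and 0 to 124 genes in the between-class test, where no member was called under any alternative.

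The difference in the share of interferon-high cells (tamoxifen minus placebo, percentage points) turned sign under several settings. With 500 UMIs per cell it was -0.0722 in classical monocytes, 0.241 in CD8 T cells and -0.176 in CD4 T cells. With cells assigned singly it was -0.906 in classical monocytes. With at least 3 members it was -1.43 in general capillary endothelium, -2.38 in interstitial macrophages, 1.03 in CD8 T cells and -0.131 in CD4 T cells. Unthinned it was -6.79 in general capillary endothelium, -2.81 in neutrophils, -1.72 in interstitial macrophages, -0.726 in B cells and -1.99 in CD4 T cells. Over the mice left out it ranged over -3.97 to 6.43 in classical monocytes, -0.483 to 0.627 in general capillary endothelium, -0.157 to 0.960 in neutrophils, -0.444 to 1.86 in interstitial macrophages, -0.0779 to 2.59 in B cells and -0.337 to 0.429 in CD4 T cells. The causes were not tested.

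Of the 24 named fold changes 22 kept their sign over all alternatives. Bst2 in B cells ranged over -0.17 to 1.16 and Oasl2 in interstitial macrophages over -1.32 to 0.012 when 1 mouse was left out. The medians stayed within the members' median SE except under 7 of 32 fits with 1 mouse left out. Of 93 levels under other assignments of cells, 89 stayed within 1 SD. The crossed numbers, the unthinned shares, the alternatives for levels, medians and other pathway genes, and the removal of cells rich in haemoglobin were chosen after seeing the data.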

Other observations

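Other response genes shared the erythroid level of Rsad2 and Isg15, and are named here after their values were seen. Ube2l6, the conjugating enzyme for Isg15, was at 2809 and 6307 CPM in erythroid cells of the tamoxifen mice and 2502 and 5062 CPM in those of the placebo mice. Isg20, an RNA exonuclease gene, was at 2059 and 4847 CPM with tamoxifen and 1770 and 4187 CPM with placebo, and the nucleotidase gene Nt5c3 was at 463 and 908 CPM with tamoxifen and 366 and 723 CPM with placebo. For all 3 genes platelets or megakaryocytes were the next class, at means of 258, 219 and 113 CPM, and the groups overlapped in erythroid cells.

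A cluster of 28 cells, led by Il1bos, Isg15, Cckar and Scimp, took no class name. Its marker score was highest for club or secretory cells (3.62), with signs of neutrophils close behind (3.43). Over all mice it had 686 CPM of Isg15, 361 CPM of Oasl2, 169 CPM of Rtp4 and 132 CPM of Irf7. Isg15 was at 343 and 204 CPM in the tamoxifen mice, from 4 and 10 cells, and at 1898 and 996 CPM in the placebo mice, from 5 and 9 cells. In tamoxifen 2 this was below the 402 CPM of cluster 4 of the named neutrophils.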
